A study of Rattus norvegicus with 6 samples.

Results

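The genes described here are those whose names on the array begin with Psma, Psmb, Psmc, Psmd or Psme and a number, the symbols of proteasome subunits and of the proteins that cap or activate the particle. They were chosen by name alone from the non-control spots, and 44 of the 26456 gene names on the array matched, represented by 47 of 30367 probes and 110 of 42877 spots. The RNA came from left ventricle of 6 male rats, 1 one-colour Agilent array per rat. Of these, 3 were of the OLETF strain, which develops obesity and type 2 diabetes, aged 27, 28 and 27 weeks, and 3 of the LETO strain, its non-diabetic control, aged 27, 28 and 28 weeks. No treatment is named for either strain, and they are separate strains, so that diabetes and strain cannot be told apart. The labels speak of 3 independent experiments per strain.

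The proteasome is the protease that degrades proteins tagged with ubiquitin. Its 20S core is a stack of rings, of which the outer ones are made of alpha subunits (Psma genes) that gate the channel, and the inner ones of beta subunits (Psmb genes), of which Psmb5, Psmb6 and Psmb7 carry the active sites. Interferon-gamma induces Psmb8, Psmb9 and Psmb10, which replace those 3 in newly built particles and give the immunoproteasome. The 19S regulatory particle binds and unfolds tagged proteins with a ring of ATPases (Psmc genes) and non-ATPase subunits (most Psmd genes), whereas the Psme genes encode activators that open the core without ATP. In heart muscle the proteasome is known for the turnover of sarcomere proteins, and the immunoproteasome is most abundant in leukocytes.

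Values are log2 of the processed signal over the 75th percentile of each array, and differences are OLETF minus LETO from limma, with p-values adjusted by the Benjamini-Hochberg method over all 18816 genes tested and called below 0.05. Testing required a probe to exceed background clearly on every array of LETO or of OLETF, and the brightest such probe stood for its gene. All 44 names passed, each with a probe well above background on all 6 arrays. A difference of a tissue RNA level does not tell apart fewer cells of a type from less RNA per cell. The first slide held the 3 LETO arrays together with OLETF 1, and the second held OLETF 2 and 3, so that the estimate with slide as a block equals OLETF 1 against LETO on the shared slide. Among all genes tested, 480 were called without that block and 105, or 0.558%, with it, and none of the 44 names was called with it. The 8 cardiomyocyte markers, Myh6 and Tnnt2 among them, were all detected, with differences between −0.22 and −0.01, none called. Array LETO 1 stood apart from LETO 2 and 3, as described further on, and values without it are given where they bear on a result.

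Most proteasome genes differed little between the strains, and 1 was called. Psma2, an alpha-ring subunit, was lower in OLETF, and no member was called higher. Of the 44 members 26 had a positive and 18 a negative difference, with a median of 0.01. Over all genes tested 52.4% were negative, with a median of −0.01. The 1 member called is 2.27% of 44, and over all genes 2.55% were called in either direction, 1.05% lower and 1.5% higher in OLETF. The share called among the members is therefore near the background. An unadjusted p below 0.05 was reached by 4 members, or 9.09%, against 12.4% of all genes. The arrays of the strains did not overlap for 5 members with OLETF above, or 11.4%, against 8.92% of all genes, and for 2 members with LETO above, or 4.55%, against 8.43% of all genes. The 95% interval of the difference lay within a 1.5-fold change in either direction for 40 members, and for 77.3% of all genes.

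**Figure D1:**
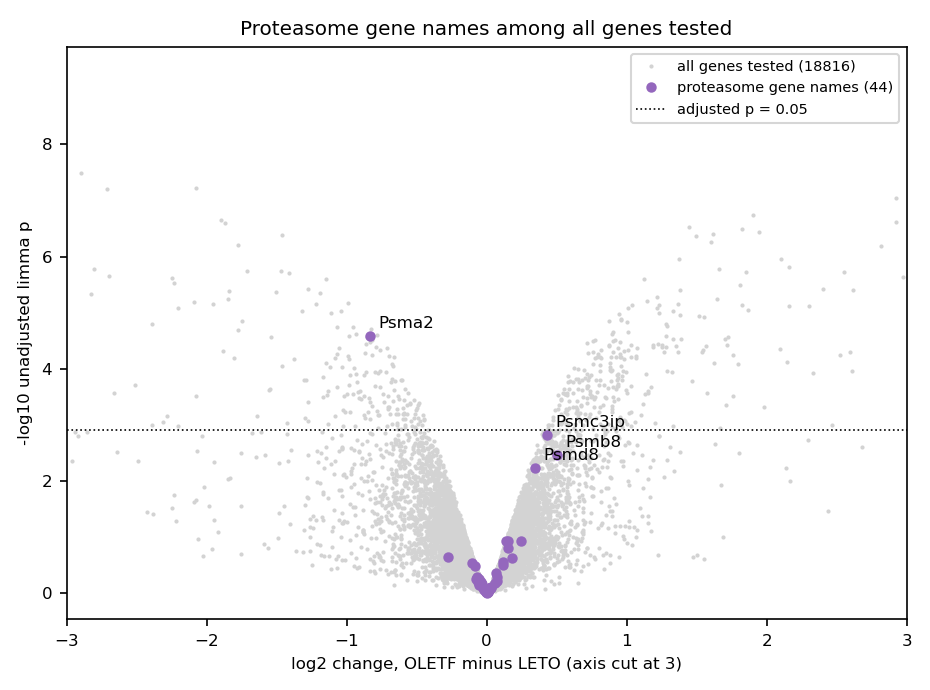
Log2 difference, OLETF minus LETO (x axis), against −log10 of the unadjusted limma p (y axis) for the 18816 genes tested (grey) and the 44 proteasome gene names (purple), with the dotted line at an adjusted p of 0.05 and the x axis ending at 3 in both directions. Psma2 lies above the line on the left at −0.83, and Psmc3ip, Psmb8 and Psmd8 lie below it on the right.

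The sequences of 4 probes are given because the differences described for these genes rest on 1 probe each, as for 41 of the 44 members. Whether the strains share the bases under these probes was not tested. The probes of Psma2, Psmb8, Psmb9 and Psmd8 are each present as 1 spot and are printed 5′ to 3′ as in the files, without capitals because no part is singled out.
Psma2: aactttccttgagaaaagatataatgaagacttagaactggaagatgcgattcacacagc
Psmb8: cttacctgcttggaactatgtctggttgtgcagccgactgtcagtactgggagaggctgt
Psmb9: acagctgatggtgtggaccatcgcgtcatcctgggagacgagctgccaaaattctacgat
Psmd8: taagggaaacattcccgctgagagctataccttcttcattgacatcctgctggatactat
In the rn4 build the files place the Psma2 probe at chr17:58736661-58738012 on the minus strand. Its 60 bases span 1352 bp of genome, so it lies across at least 1 intron and reads spliced RNA. The probe of Psmb8 lies at chr20:4787980-4788039 on the minus strand and that of Psmb9 at chr20:4806341-4806400 on the plus strand, and the probe of Psmd8 at chr1:84310801-84310860 on the minus strand. The longest run of bases shared by probes of different members was 11 of 60. Annotation of exons and untranslated regions in that build was not used here.

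Psma2 encodes subunit alpha 2 of the outer ring. Its levels were 2.43, 2.54 and 2.53 in the LETO arrays and 1.73, 1.68 and 1.59 in the OLETF arrays. The lowest LETO array lay well above the highest OLETF array. The means stood at 2.50 ± 0.06 in LETO and 1.67 ± 0.07 in OLETF (SD, n = 3 each). The difference was −0.83 ± 0.09 (SE), with a 95% interval from −1.04 to −0.63, which is 1.78-fold lower in OLETF (limma, adjusted p = 0.0046). By p it ranked 107 of 18816 genes, and among the 197 genes called lower it ranked 51 by p and 114 by size. It remained called without any 1 of the 6 arrays, with differences between −0.87 and −0.79. Blocking on the slide gave −0.77 and an adjusted p of 0.104, and from the shared slide alone the adjusted p was 0.293.

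The other subunits of the constitutive core did not follow Psma2. The core has 14 members here, 7 alpha and 7 beta subunits, and the remaining 13 had differences between −0.06 and 0.03, none called. Each of those 13 intervals excluded a 1.5-fold change, the lowest bound being −0.37 and the highest 0.29, and none of them overlapped the interval of Psma2. Set against the mean of these 13 genes within each array, Psma2 stood at −0.46, −0.49 and −0.50 in LETO and at −1.27, −1.28 and −1.34 in OLETF. This shift of Psma2 by −0.82 within the arrays follows from the differences given above and is no separate test. The next in size among the alpha subunits was Psma6, at −0.06 with an interval from −0.37 to 0.24. Psma8, a testis form of an alpha subunit, was not analysed here.

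**Figure D2:**
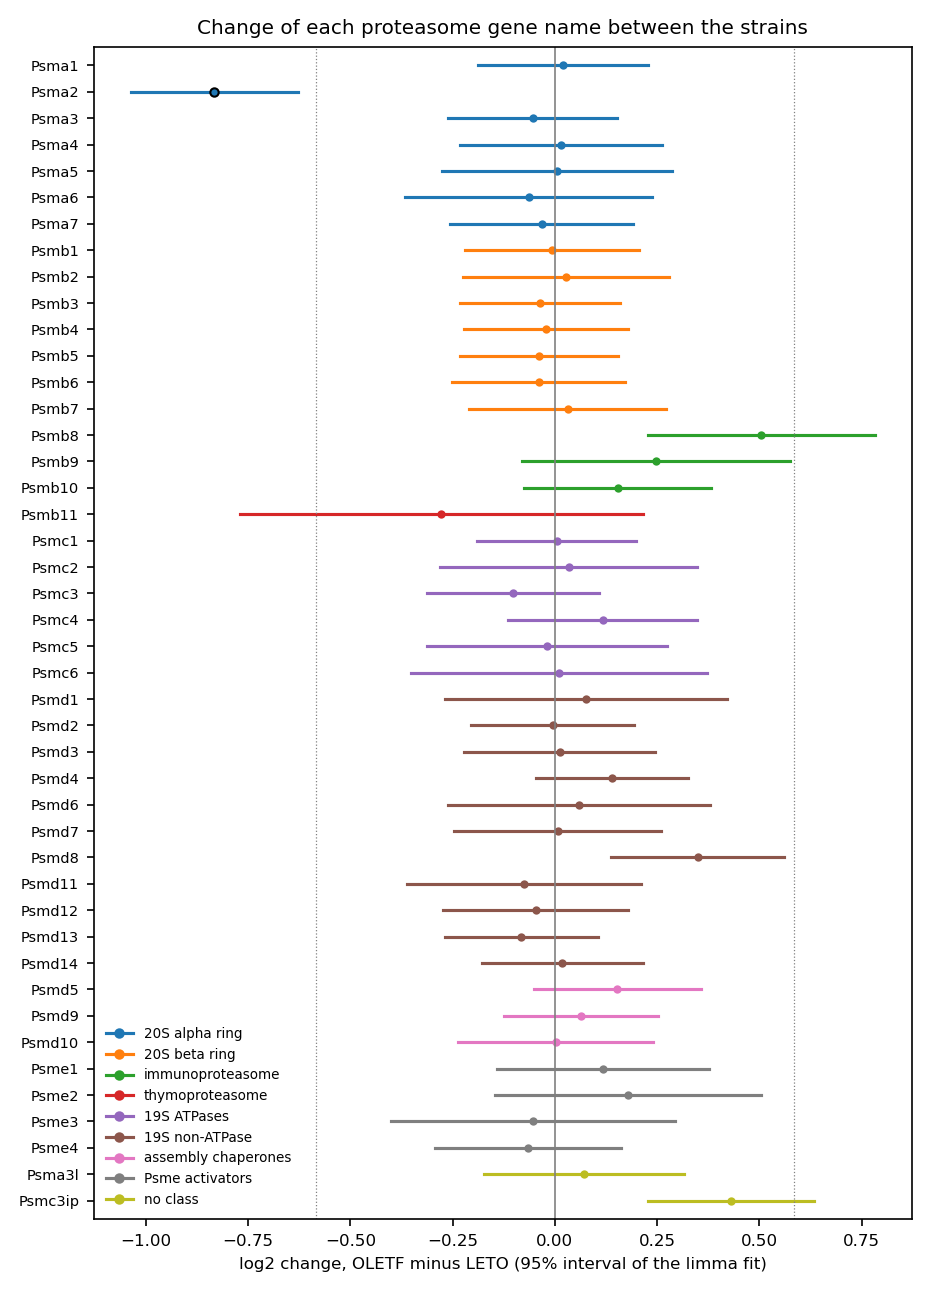
Log2 difference, OLETF minus LETO, of each of the 44 gene names with its 95% interval from limma (lines), coloured by class, with dotted lines at a 1.5-fold change and a black rim on the called gene. Psma2 stands alone at −0.83, the other core subunits lie between −0.06 and 0.03, and the 3 immunoproteasome genes lie between 0.15 and 0.51.

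The constitutive catalytic subunits had small differences between the strains. Psmb5, the chymotrypsin-like subunit, was at 3.64, 3.65 and 3.65 in LETO and at 3.68, 3.62 and 3.53 in OLETF, a difference of −0.04 ± 0.08 (SE). Psmb6, the caspase-like subunit, was at 2.11, 2.21 and 2.31 in LETO and at 2.16, 2.23 and 2.13 in OLETF, also a difference of −0.04. Psmb7, the trypsin-like subunit, was at 2.57, 2.28 and 2.46 in LETO and at 2.49, 2.51 and 2.41 in OLETF, a difference of 0.03. In all 3 genes the arrays of the strains overlapped, and the intervals ran from −0.25 at the lowest to 0.27 at the highest. The sign of Psmb5 turned with slide as a block, to 0.03, and those of Psmb6 and Psmb7 turned without 1 LETO array, to 0.012 and −0.049.

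Their interferon-inducible counterparts had higher mean levels in OLETF, but none was called. Psmb8, which replaces Psmb5, was at 0.13, 0.01 and −0.17 in LETO and at 0.35, 0.62 and 0.51 in OLETF. Its lowest OLETF array lay above the highest LETO array. The difference was 0.51 ± 0.12 (SE) with an interval from 0.23 to 0.78, 1.42-fold, and the adjusted p was 0.089. Its adjusted p fell below the threshold in 3 of the 21 alternatives, which were normexp background correction with quantile normalization, limma with trend and robust settings, and array weights. Those 3 settings also called more of all genes, 525, 654 and 1700 in that order, against 480. Psmb8 was not called without any 1 of the 6 arrays, with differences between 0.42 and 0.58. Blocking on the slide gave 0.36 and an adjusted p of 0.714.

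Psmb9, which replaces Psmb6, was at 1.13, 1.26 and 0.91 in LETO and at 1.17, 1.57 and 1.30 in OLETF. The strains overlapped, since OLETF 1 lay below LETO 2. The difference was 0.25 ± 0.14 (SE) with an interval from −0.08 to 0.58 and an adjusted p of 0.586, and it was 0.07 with slide as a block. Psmb10, which replaces Psmb7, was at 2.52, 2.73 and 2.52 in LETO and at 2.68, 2.82 and 2.73 in OLETF. Here too the strains overlapped, and the difference was 0.15 ± 0.10 (SE), with an interval from −0.08 to 0.38 and an adjusted p of 0.655. OLETF 2 was the highest of the 6 arrays for each of the 3 genes.

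Each inducible subunit was also set against the one it replaces within the same array, over 3 pairs. The mean log2 ratio of Psmb8 to Psmb5 was higher in OLETF by 0.54, with no overlap of the strains, and the exact two-sided permutation test gave p = 0.1, the smallest that 3 against 3 arrays allow (0.3 after adjustment over the 3 pairs). The ratio of Psmb9 to Psmb6 was higher by 0.29 and that of Psmb10 to Psmb7 by 0.12, with overlapping arrays and exact permutation p of 0.3 and 0.5. With 3 against 3 arrays this exact test cannot reach 0.05, and no other test of the pairs was run. The slide moved with these values: on the shared slide the median difference of the 3 inducible genes was 0.09, against 0.25 over all arrays, and its part in the result was not tested.

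**Figure D3:**
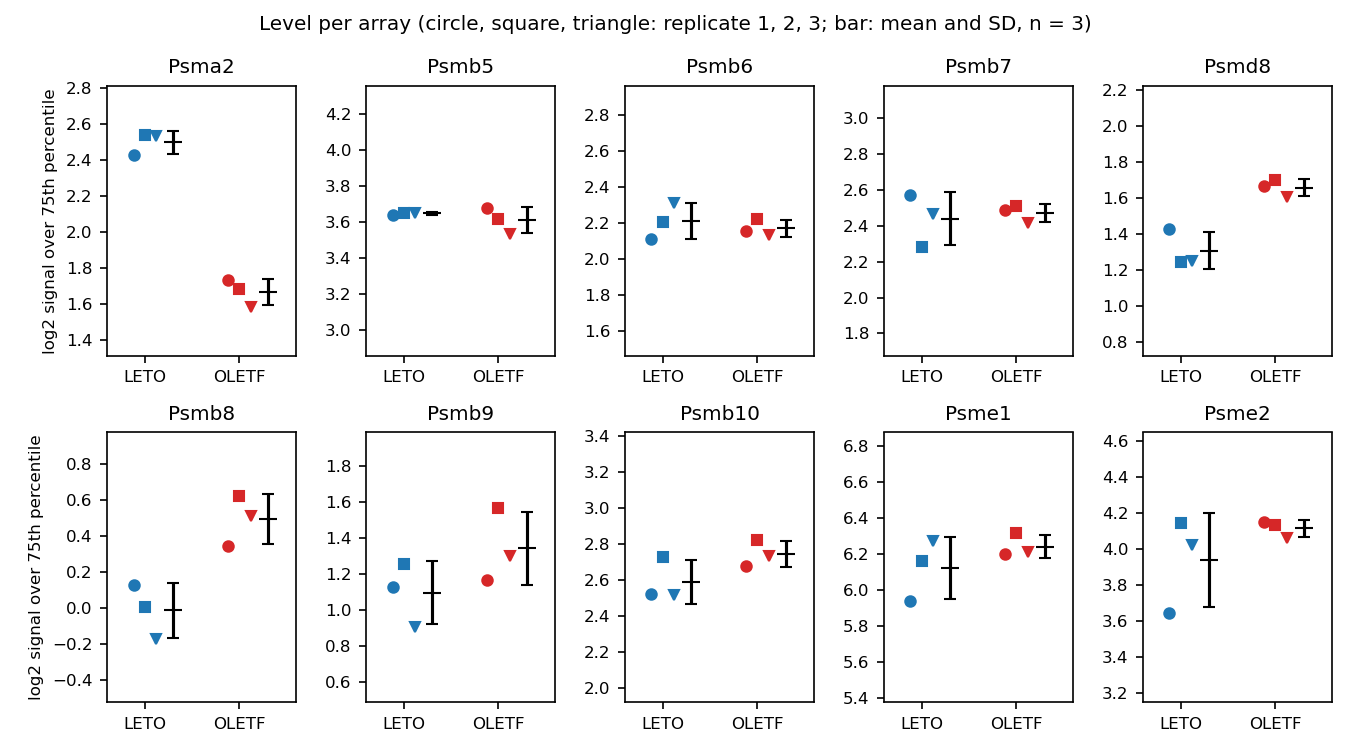
Level per array, as log2 signal over the 75th percentile of the array (y axis), for 10 members in LETO (blue) and OLETF (red). Circle, square and triangle are replicates 1, 2 and 3, and the bar is the mean with its SD (n = 3). Every panel spans the same range of log2 units. Psma2, Psmb8 and Psmd8 show separate strains, and Psmb5, Psmb6 and Psmb7 overlap.

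Psmb11 encodes the thymus form of the beta 5 subunit, known from cortical epithelium of the thymus. In LETO it was at −2.50, −1.86 and −1.88, and in OLETF at −2.66, −2.17 and −2.24, a difference of −0.28 with an interval from −0.77 to 0.22, and the strains overlapped. A second probe for Psmb11 was not well above background on any of the 6 arrays, so the probes disagree on whether the gene is detected. No level of Psmb11 in the ventricle is drawn from them.

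In the 19S regulatory particle none of 17 genes was called, and all 17 intervals excluded a 1.5-fold change. The 6 ATPases, which thread the substrate into the core, had differences between −0.10 (Psmc3) and 0.12 (Psmc4). Psmc1, an ATPase at the base, was at 2.33, 2.31 and 2.29 in LETO and at 2.34, 2.37 and 2.23 in OLETF. The strains overlapped, and the difference was 0.0046 ± 0.08 (SE), with an interval from −0.19 to 0.20. The 11 non-ATPase subunits lay between −0.08 and 0.35.

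The largest of them was Psmd8, a lid subunit, with 1.42, 1.24 and 1.25 in LETO and 1.66, 1.70 and 1.60 in OLETF. All 3 OLETF arrays lay above all 3 LETO arrays. The difference was 0.35 ± 0.09 (SE), with an interval from 0.14 to 0.56 and an adjusted p of 0.123. Without LETO 1 it was 0.41 with an adjusted p of 0.047, which is the only removal of 1 array that brought it past the threshold. Psmd4, a receptor for ubiquitin chains, had a difference of 0.14, with no overlap and an adjusted p of 0.587. Psmd13, a lid subunit named because it completes the list of members without overlap, was at −0.08, with LETO above OLETF and an adjusted p of 0.838.

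Psmd5, Psmd9 and Psmd10 are chaperones that help assemble the base and are not part of the finished particle. Psmd5 had a difference of 0.15 without overlap of the strains (adjusted p = 0.588), Psmd9 of 0.06 and Psmd10 of 0.0018. A second probe of Psmd9 gave −0.0083. None was called.

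The Psme genes encode activators that cap the core in place of the 19S particle. Psme1 and Psme2 together form the interferon-inducible PA28 cap. Psme1 was at 5.93, 6.16 and 6.27 in LETO and at 6.20, 6.31 and 6.21 in OLETF, a difference of 0.12 with an interval from −0.14 to 0.38. Psme2 was at 3.65, 4.14 and 4.03 in LETO and at 4.15, 4.13 and 4.06 in OLETF, a difference of 0.18 with an interval from −0.15 to 0.50. For both, LETO 1 was the lowest array and the other arrays overlapped, and without it the differences were 0.02 and 0.03. Psme3, which forms a nuclear cap, had a difference of −0.05 (0.11 without LETO 1, its highest array). For Psme4, which forms the large single-chain cap PA200, the probe used gave −0.07, and a second probe, present as 10 spots, gave 0.06, so its sign is not settled.

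A pair of names matched the rule but were placed in none of these classes. Psmc3ip encodes a partner of recombinases in meiosis that was named for binding Psmc3. In LETO it was at −0.95, −0.86 and −0.86, and in OLETF at −0.38, −0.46 and −0.53. The strains did not overlap, and the difference was 0.43 ± 0.09 (SE) with an interval from 0.23 to 0.63 and an adjusted p of 0.055. It was past the threshold in 5 of the 21 alternatives. Psma3l is annotated as a proteasome subunit, alpha type 3-like, and was kept apart from the alpha ring. Its probe lies at chr6:93111009-93111068 in rn4, close to that of Psma3 at chr6:93112068-93112127, both on the plus strand. Whether its signal is separate from that of Psma3 is uncertain. The mean level of Psma3l was 3.07 in LETO and 3.14 in OLETF, against 0.72 and 0.67 for Psma3. The difference was 0.07 for Psma3l against −0.05 for Psma3.

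The array LETO 1 stood apart from LETO 2 and 3 across the family. It was the lowest of the 6 arrays for 19 of 44 members, or 43.2%, against 28.7% of all genes. It was the highest for 4 members, or 9.09%, against 23.9% of all genes. LETO 1 was thus often an extreme array over all genes too, and more often the lowest than the highest. The members leaned the same way, and more strongly. The median distance of LETO 1 from the mean of LETO 2 and 3 was −0.10 over the members and −0.02 over all genes tested. Across the 44 members this distance correlated with the level at r = −0.41, and across all genes at −0.19. These are correlations across genes of the same arrays and carry no p. The members were not compared with other genes of like level. Psmd1, the large scaffold subunit of the base, named after its values were seen, was at 4.79 in LETO 1 against 5.27 and 5.29 in LETO 2 and 3. Without LETO 1 the number of members with a negative difference was 27 in place of 18, and the median was −0.03 in place of 0.01. These counts moved as far with other settings: 28 members were negative without OLETF 1, with a median of −0.030, 29 with array weights and 11 with slide as a block. Psma2 was still called without LETO 1, at −0.87.

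**Figure D4:**
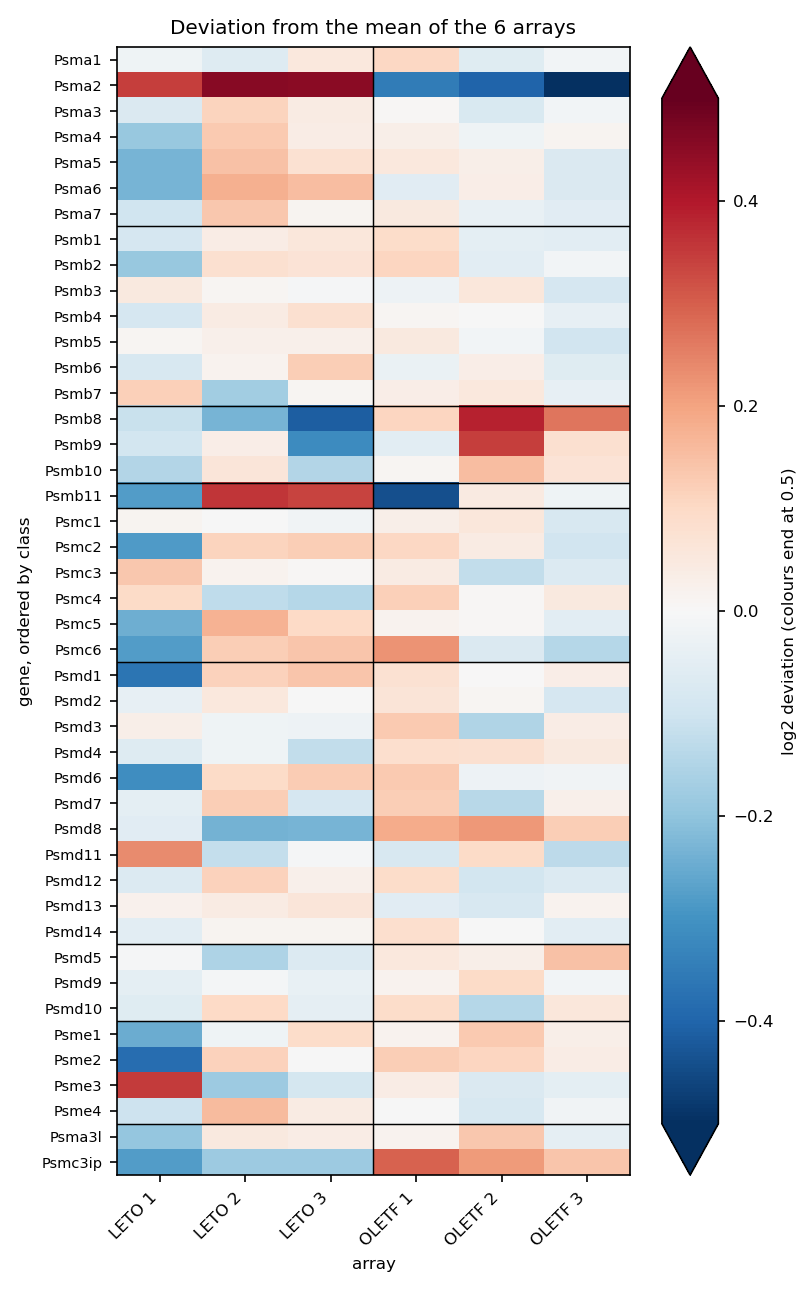
Log2 deviation of each of the 44 gene names (y axis, by class) from its mean over the 6 arrays (x axis), with colours ending at 0.5. Psma2 is high in LETO and low in OLETF, and the inducible genes Psmb8 and Psmb9 are highest in OLETF 2. LETO 1 is the lowest array for 19 of the 44 names (43.2%, against 28.7% of all genes).

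For 7 members, Psma5, Psmb2, Psmd6, Psmd12, Psme2, Psme3 and Psme4, a probe was present as 10 spots, which gives the spread within an array. The SD over spots was between 0.01 and 0.09. This is the spread of the measurement within an array and leaves out that between rats. Psma2, Psmb8 and Psmd8 had 1 spot each, so their spread within an array is not known.

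The promoters of Psmb8, Psmb10, Psme2 and Psma2 are shown because the first 3 are interferon-inducible genes that hold a match to a known interferon element, and Psma2 is the gene that was called. Psmb9 and Psme1, which are interferon-inducible too, held no match to the interferon-regulatory-factor element or the gamma-activated site in this window and are not printed. Each line holds 250 bases before and 50 after the gene start, from RefSeq on the GRCr8 build, in the direction of the gene. Capitals mark matches on either strand to the interferon-regulatory-factor element (GAAANNGAAA), the gamma-activated site (TTCNNNGAA) or the core of the antioxidant response element (TGACNNNGC). In these 4 promoters no match of one motif overlaps a match of another of the 3.
Psmb8, chr20:4656982-4657281, minus strand: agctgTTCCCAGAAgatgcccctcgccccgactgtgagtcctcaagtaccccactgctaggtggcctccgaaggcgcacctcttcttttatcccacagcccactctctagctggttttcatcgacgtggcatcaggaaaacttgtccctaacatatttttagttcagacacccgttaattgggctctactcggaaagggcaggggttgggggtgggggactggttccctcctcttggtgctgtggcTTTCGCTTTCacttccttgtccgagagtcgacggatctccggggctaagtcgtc
Psmb10, chr19:50743243-50743542, minus strand: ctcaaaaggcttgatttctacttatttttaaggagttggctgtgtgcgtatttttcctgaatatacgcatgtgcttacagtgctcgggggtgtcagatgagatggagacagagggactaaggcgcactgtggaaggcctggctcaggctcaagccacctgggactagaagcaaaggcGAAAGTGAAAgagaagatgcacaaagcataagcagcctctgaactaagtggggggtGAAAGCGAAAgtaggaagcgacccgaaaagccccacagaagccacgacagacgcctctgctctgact
Psme2, chr15:33052702-33053001, minus strand: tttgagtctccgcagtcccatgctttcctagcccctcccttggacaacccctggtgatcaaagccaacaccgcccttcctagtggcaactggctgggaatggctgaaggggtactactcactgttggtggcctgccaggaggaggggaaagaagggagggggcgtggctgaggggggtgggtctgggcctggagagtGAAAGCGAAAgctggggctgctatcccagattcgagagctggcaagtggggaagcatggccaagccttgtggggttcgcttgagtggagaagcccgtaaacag
Psma2, chr17:55260392-55260691, minus strand: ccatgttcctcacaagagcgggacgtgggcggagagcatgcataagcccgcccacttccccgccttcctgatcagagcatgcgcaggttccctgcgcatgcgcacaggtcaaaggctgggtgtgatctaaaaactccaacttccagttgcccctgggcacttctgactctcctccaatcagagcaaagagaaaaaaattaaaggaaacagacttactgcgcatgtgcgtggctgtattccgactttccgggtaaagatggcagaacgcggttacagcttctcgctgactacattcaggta
RefSeq promoters were matched for 38 of the 44 names. The interferon-regulatory-factor element was in 6 of those 38, in Psma4, Psmb3, Psmb8, Psmb10, Psmd7 and Psme2, and in 3.92% of all 33469 promoters of this length. Psmb10 held 2 matches. Of those 6 genes, Psmb8 had the largest difference between the strains, and Psma4, at 0.01, and Psmb3, at −0.04, had small ones. The gamma-activated site was in 4 of 38, Psmb8 among them, against 8.87% of all promoters, and the antioxidant core in 8 of 38 against 12.1%. A loose NF-kappa-B-like motif (GGGNNNNNCC) was in 23 of 38 against 47.3%. The promoter of Psma2 held none of these 3 in this window and has 1 CCAAT box, which 20 of 38 member promoters and 37.5% of all promoters held. A match in letters is a description and no evidence of binding. The median GC content of the member promoters was 56.5% and that of all promoters 51.7%, with a median of 18.5 and 7 CpG dinucleotides.

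Psmb8 and Psmb9 lie in the class II region of the major histocompatibility complex, where the RefSeq order is Tap2, Psmb8, Tap1, Psmb9. Tap1 and Tap2 encode the transporter that carries peptides into the endoplasmic reticulum. Tap1 had a mean of −3.21 in LETO and of −3.07 in OLETF (n = 3 each), a difference of 0.13 (adjusted p = 0.888) that turned to −0.07 with slide as a block. Tap2 had a difference of 0.05 with an interval from −0.14 to 0.23. The strains overlapped for both, so that of these 4 neighbours Psmb8 alone had separate arrays.

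The other genes of the pathway were taken from 7 lists of 118 symbols, of which 107 were tested. Of these, 1 was called higher and 0 lower in OLETF by limma, against 1.5% and 1.05% of all genes. An unadjusted p below 0.05 was reached by 13 of the 107, against 12.4% of all genes. The median was 0.02. The called gene was Ube2l6, a conjugating enzyme for ubiquitin and for the interferon-induced modifier ISG15. It was at −1.65, −1.47 and −1.77 in LETO and at −0.99, −0.83 and −0.72 in OLETF, without overlap. The difference was 0.79 ± 0.12 (SE), 1.72-fold, with an adjusted p of 0.017. The call was lost without LETO 3, OLETF 2 or OLETF 3, with differences between 0.72 and 0.78, with a replicate block (adjusted p = 0.059), without the filter on dim probes and with slide as a block (0.64 and adjusted p = 0.274). The remaining 22 tested genes of ubiquitin and of activating and conjugating enzymes were not called.

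Class I peptide loading, the step that follows the proteasome in antigen presentation, had a positive difference in all 12 genes tested. Over all genes tested 8949 of 18816 were positive. The list median was 0.14, and 0 were called by limma. An unadjusted p below 0.05 was reached by 2 of the 12, against 12.4% of all genes. With slide as a block 11 of the 12 were positive, with a median of 0.09. B2m, the light chain of class I molecules, was at 5.35, 5.36 and 5.22 in LETO and at 5.66, 5.95 and 5.68 in OLETF, a difference of 0.45 ± 0.11 (SE) with an adjusted p of 0.098, and of 0.35 with slide as a block. Calr, a chaperone of class I heavy chains, had a difference of 0.20 with an adjusted p of 0.370. Among 12 genes of interferon-gamma signalling 7 were positive, with a median of 0.11 and 0 called. Of these 12, 4 had an unadjusted p below 0.05, against 12.4% of all genes. With slide as a block 10 of them were positive, with a median of 0.14. Ifngr2, a chain of the receptor, was at 0.33 (adjusted p = 0.10) and Gbp2, a guanylate-binding protein induced by interferon, at 0.41 (adjusted p = 0.263). Irf1, a transcription factor of that pathway, was at −0.29 with an interval from −0.92 to 0.34 and turned to 0.02 with slide as a block.

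Genes that build, assist or control the proteasome showed no call either. Of 17 assembly factors and associated proteins 14 were positive, with a median of 0.02 (over all genes tested 8949 of 18816 were positive). Pomp, the chaperone that matures the core, was at 4.17, 4.34 and 4.35 in LETO and at 4.50, 4.51 and 4.45 in OLETF, a difference of 0.20 without overlap and with an adjusted p of 0.438. Of 10 transcription factors known to control proteasome genes, Nfe2l1, the factor that raises subunit genes when the proteasome is impaired, was at 0.08 (adjusted p = 0.881), and Nfyc and Nfyb, parts of the factor that binds CCAAT boxes, were at −0.27 and −0.13.

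Among 14 ubiquitin ligases of striated muscle the median was −0.08, and Fbxo32 and Trim63, the ligases known from muscle atrophy, were at −0.16 (adjusted p = 0.664) and −0.09 (adjusted p = 0.859). Traf6 and Trim55 had the smallest p of that list, at 0.27 and −0.25, without a call. Among 19 deubiquitinating enzymes the median was 0.01, with Usp18 at −0.31 and Cyld at 0.23, and 0 were called. Each of these lists held 1 gene at an unadjusted p below 0.05, against 12.4% of all genes.

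**Figure D5:**
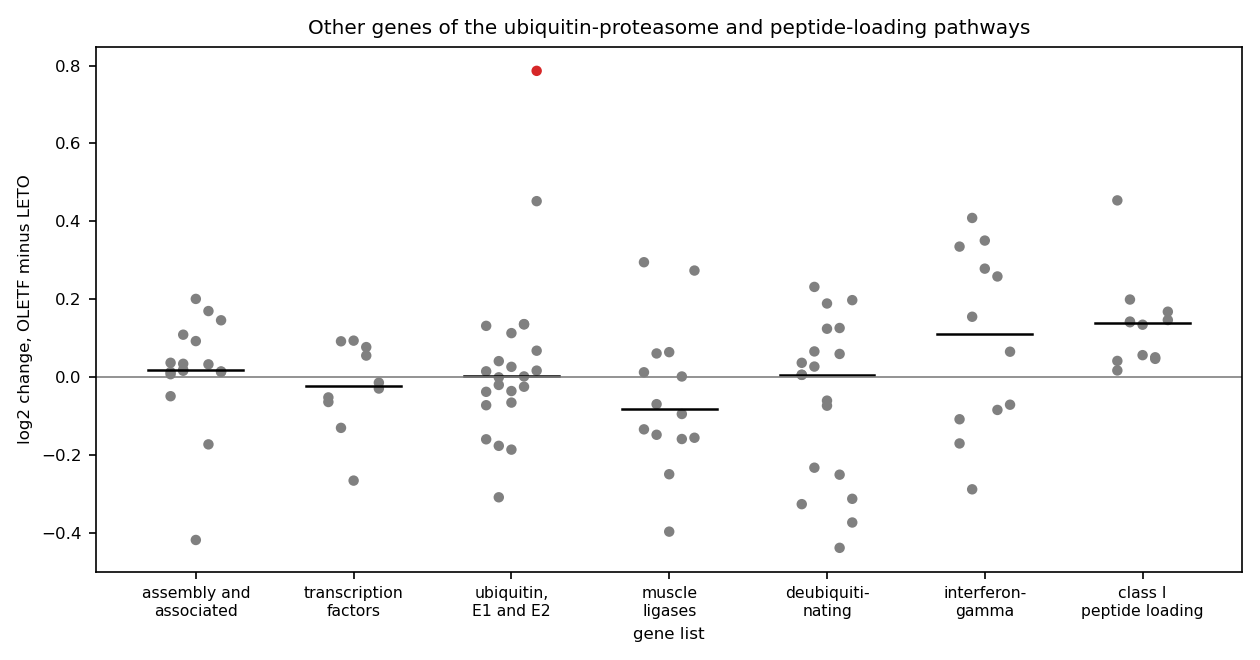
Log2 difference, OLETF minus LETO (y axis), of each tested gene of the 7 pathway lists (x axis), with the called gene in red and the median of each list as a black line. The red point is Ube2l6 at 0.79, and all 12 genes of class I peptide loading lie above 0 (11 with slide as a block, not drawn).

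Because leukocytes are rich in the immunoproteasome, cell markers are given beside these values. Of 6 leukocyte markers 5 were tested and 4 were negative, with a median of −0.17 and none called. The differences lay between −0.38 and 0.01, and 1 of the 5 had an unadjusted limma p below 0.05, against 12.4% of all genes. With slide as a block the median of these markers was 0.0037, with 3 of 5 positive. Of 8 markers of T and NK cells 7 were tested and 2 were called lower in OLETF, against 1.05% of all genes, with a median of −0.92 and 6 of 7 negative. The called genes were Cd3g at −0.96 (adjusted p = 0.018) and Nkg7 at −0.84 (adjusted p = 0.022). Blocking on the slide ended both calls, at −0.70 and −0.80. So did leaving out LETO 1, LETO 2, OLETF 2 or OLETF 3 for Cd3g, with differences between −0.97 and −0.84. For Nkg7 the call was lost without LETO 2 or any 1 OLETF array, with differences between −0.89 and −0.78. Over the 7 genes the log2 of the summed level was between 1.52 and 1.80 in LETO and between 0.89 and 1.05 in OLETF. The 6 macrophage markers had a median of 0.07, which turned to −0.12 with slide as a block, and their summed level ranged from 3.45 to 4.16 in LETO and from 3.85 to 4.18 in OLETF. The 6 fibroblast markers had a median of 0.18 and the 6 endothelial ones of −0.02, with none called in either. Of 3 red cell genes tested Slc4a1, the anion exchanger of red cells, was higher by 3.19 (adjusted p = 0.006; 2.88 and not called with slide as a block), and the remaining 2 were negative. The 1 B cell marker tested was at −0.30, not called. The summed level of T and NK markers was thus lower in OLETF, opposite in sign to Psmb8 and equal in sign to Psma2, and its part in either result was not tested.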

How the data were processed

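RNA of left ventricle was hybridised to 1-colour Agilent Rat GE 4x44K v3 arrays, 3 per strain. Per the file headers, the deposited files hold linear intensity, and the processed signal used here was background-subtracted and detrended. The software was Agilent Feature Extraction 10.7.3.1 per those headers and 9.1 per the submitters' processing notes. The deposited value table, linear intensity scaled per array, served as an alternative. Groups come from the strain label and replicate numbers from the titles, which for LETO 2 differ from the number in the source name. Signals were log2 transformed and the 75th percentile over all non-control probes of each array was subtracted. Control spots and between 260 and 356 spots per array with an outlier label were left out, and spots of a probe were averaged. The number of arrays limits the precision.

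Testing used limma 3.58.1 in R 4.3.3 (lmFit, eBayes) over 18816 genes with Benjamini-Hochberg adjustment. Full values are given for called members, the catalytic and inducible beta subunits, Psma2, Psmc1 and the Psme genes, and otherwise for up to 2 members per class with the largest difference. From each other list the rule takes called genes or the 2 of smallest p, and also Tap1, Tap2, Nlrc5 (not analysed here), Irf1, Nfe2l1, Fbxo32 and Trim63. Some items that the rule takes are not reported here. Members and lists were chosen with earlier results of these data known. On simulated data of this comparison with 18816 genes, 30% of genes changed 1.5-fold and 64% of genes changed 2-fold were recovered, and 94% at 4-fold. Replicate numbers were not used as pairs, since deviations within numbers correlated at −0.09, −0.14 and −0.01. RefSeq accessions matched 41 of 44 names. Motifs were searched and figures drawn with Python 3.11.15, pandas 2.3.3 and matplotlib 3.10.9.

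The alternatives were quantile normalization, median scaling, normexp with an offset of 50 and quantile normalization, the value table, dim probes kept, a demand for signal on all 6 arrays, averaging a gene's probes, single probes, eBayes with trend and robust, array weights, blocks by replicate or slide, age as a term, the shared slide alone, and leaving out each array. The percentile over spots was added after seeing the data.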

Additional observations from a re-analysis of the deposited data

How the results depend on the processing

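Psma2 was called lower in 19 of the 21 alternatives and not with slide as a block or on the shared slide alone. Over the 44 members 1 was called, and the count was 2 with quantile normalization (Psmc3ip added), 2 with median scaling (Psmc3ip), 3 with normexp and 3 with trend and robust (Psmb8 and Psmc3ip), 4 with array weights (Psmb8, Psmc3ip and Psmd8), 0 with slide as a block and 0 on the shared slide, and between 1 and 2 without 1 array. The median of the members, 0.01 as reported, was −0.044 with array weights, 0.064 with slide as a block and 0.064 on the shared slide, and between −0.030 and 0.041 without 1 array. Over all genes 480 were called, and 240 without the filter on dim probes, 1700 with array weights, 105 with slide as a block, 25 on the shared slide, and between 216 (without OLETF 3) and 614 (without LETO 1) without 1 array. Of the pathway genes 1 was called, against 2 with quantile normalization, 2 with normexp, 2 with the mean of all probes, 2 with trend and robust, 12 with array weights, 0 without the filter on dim probes, 0 with slide as a block, 0 on the shared slide, and between 0 and 1 without 1 array. The array weights were 0.20, 1.01 and 3.00 for LETO 1, 2 and 3, and 0.93, 0.73 and 2.37 for OLETF 1, 2 and 3. That fit thus gave LETO 1 the least weight. The cause of these moves was not tested.

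With the replicate block 301 of all genes, 1 member (Psma2, adjusted p = 0.035) and 0 pathway genes were called. The numbers do not pair the rats, so this is given only as a count.

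Over the 44 members the sign turned for 7 with slide as a block and for 24 without at least 1 of the arrays, none with a reported difference beyond 0.0755 in size. For genes given with full values or named by the rule, the turned values follow. With array weights Irf1 was at 0.0056, Psma3l at −0.026, Psmc1 at −0.017, Psme1 at −0.0041 and Psme3 at 0.056. With slide as a block, and alike on the shared slide, Irf1 was at 0.023, Psmb5 at 0.030, Psme3 at 0.012 and Tap1 at −0.066. With age as a covariate Psma6 was at 0.019. Without 1 array Psma3l lay between −0.0080 and 0.11, Psma6 between −0.20 and 0.0083, Psmb6 between −0.089 and 0.012, Psmb7 between −0.049 and 0.098, Psmc1 between −0.023 and 0.046, and Psme3 between −0.16 and 0.11. With 3 arrays per strain, the recovery on simulated data was 30% at 1.5-fold, the smallest change simulated. The differences of Psmb8 (1.42-fold), Psmc3ip (1.35-fold) and Psmd8 (0.35 in log2) were smaller than that. So were those of Psmb9 (1.19-fold), Psmb10 (1.11-fold) and Psme2 (0.18 in log2). The recovery of changes of their size was not simulated, and they can be missed.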
